A study of Mus musculus with 6 samples.

Results

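The genes described here are 9 complement components and regulators measured by RNA-seq in differentiated MC3T3-E1 osteoblasts treated with vehicle or corticosterone. They were chosen by symbol from the deposited table of 24016 mouse genes and comprise the central components *C3*, *C4b* and *Cfb*, the C1 proteases *C1ra* and *C1s1*, and the regulators *Serping1*, *Cd55*, *Cd59a* and *Clu*. Of these 9 genes, 8 have a row in the table, and *Cd55* is not analysed here. MC3T3-E1 is a wild-type preosteoblast line from mouse calvaria, and all cultures came from 1 subclone, so the libraries describe 1 clonal line rather than separate animals. Differentiation lasted 6 days in 50 μg/ml ascorbic acid with 10 mM β-glycerophosphate. For the last 24 h, 3 cultures were given vehicle and 3 were given 100 nM corticosterone, the glucocorticoid hormone that mice mainly produce. The sample labels name calcitriol (10 nM), the active form of vitamin D, in the medium of all 6 libraries, which the methods do not mention, and they give passages 4 to 10 in one field and 6 to 12 in another.

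Complement is a cascade of plasma and membrane proteins that marks surfaces for clearance, and although the liver makes most of it, mesenchymal cells such as fibroblasts and osteoblasts also make C3 and the C1 proteases. In the classical pathway the recognition protein C1q carries the proteases C1r and C1s, of which C1r activates C1s and C1s cleaves C4 and C2, while in the lectin pathway the MASP proteases take this role. The convertases formed in this way cleave C3. Factor B is the protease of the amplifying convertase of the alternative pathway, which properdin stabilizes. C1 inhibitor (*Serping1*), decay-accelerating factor (*Cd55*), *Cd59a*, clusterin (*Clu*) and vitronectin hold the cascade in check.

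Levels are given as normalized counts, which are reads scaled by a single factor in each library. The number of reads assigned to genes ran from 16020401 to 25638645. The 3 corticosterone libraries were shallower (16020401 to 18992332) than the 3 vehicle libraries (19076586 to 25638645). A gene with 3 reads, taken as the floor, has a normalized count of 2.32 to 3.84, a limit that covers counting error only. The glucocorticoid targets *Tsc22d3*, *Fkbp5*, *Per1* and *Sgk1* were all higher after corticosterone, and all 8 osteoblast markers examined had at least 48 reads in every library. Groups were compared with limma on log2(normalized count + 1) for the 19817 genes whose mean was 1 or more, and p-values were adjusted by the method of Benjamini and Hochberg. A gene is called where the adjusted p is under 0.05, and the larger changes, with an absolute log2 fold change over 1, are given as such. The 3 libraries of a group are described as biological replicates within 1 line. The limma p-values rest on the spread between them and on a prior variance. That prior is estimated from other genes of similar level, so a p-value does not measure the spread of its own gene alone.

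*C3* and *C4b* rose after corticosterone and *C1s1* fell slightly, whereas *C1ra*, *Clu*, *Cfb* and *Serping1* did not pass the test. Thus, 3 of the 7 complement genes tested were called, 2 higher and 1 lower. Among all genes tested 21.7% were called, 11.0% higher and 10.7% lower. *C4b* was the only 1 of the 7 that was called with an absolute log2 fold change over 1, as were 3.49% of all genes tested (1.74% higher and 1.76% lower). The median log2 fold change of the 7 was 0.41, which is the value of *C3*, against -0.005 for all genes tested. Above it lie *C4b* and also *Cfb* (1.56) and *Serping1* (1.24), which had very few reads, so the median does not describe a rise of the whole group. The groups did not overlap in 5 of the 7, 4 higher and 1 lower, while this was so in 35.0% of all genes tested. However, 1 of the 4 was *Cfb*, with 1, 0 and 0 reads with vehicle and 2, 5 and 1 with corticosterone. It passed the filter only through its corticosterone reads, whereas *Cd59a*, with reads only in the vehicle libraries, was left out by that filter. The count of 5 is thus not read as a shift of the group.

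**Figure D1:**
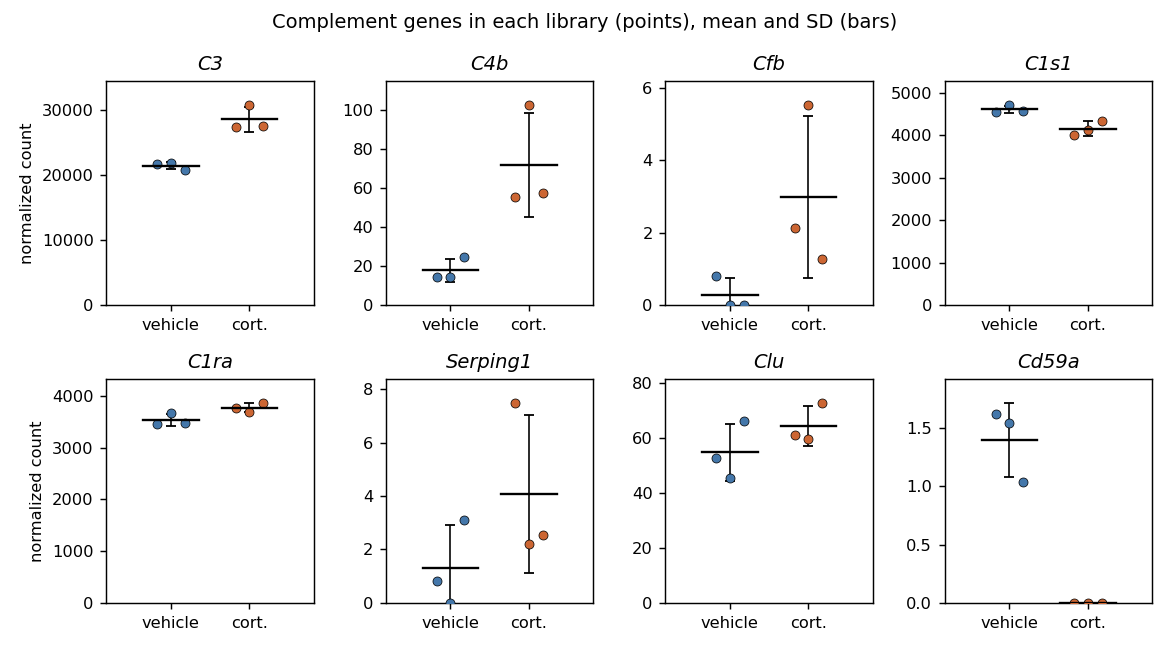
Normalized counts of the 8 complement genes with a row in the table, on linear axes from 0, with 1 point per library, the group mean as a line and the SD as an error bar (n = 3 per group). The panels of *C3* and *C4b* have all 3 corticosterone points (cort.) above all 3 vehicle points, that of *C1s1* has them below, and *Cfb*, *Serping1* and *Cd59a* lie close to 0 reads.

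The 8 genes with a row differed in level by several orders of magnitude. Per kilobase of the longest protein-coding transcript, *C3* stood at 4188 ± 112 normalized counts (SD, n = 3) in the vehicle group, and by its mean over all 6 libraries it was in place 200 of the 15184 genes with such a transcript. *C1s1* followed with 1567 ± 29.3 (SD, n = 3) and *C1ra* with 1186 ± 37.8 (SD, n = 3) per kilobase. *Clu* lay far lower at 30.3 ± 5.80 (SD, n = 3) and *C4b* at 3.35 ± 1.09 (SD, n = 3) per kilobase with vehicle. Each of these 5 levels was further from the next than the spread between libraries. *Cd59a*, *Serping1* and *Cfb*, with means of 0.775, 0.738 and 0.0983 per kilobase, could not be ordered. Reads were therefore plentiful for the C1 proteases and *C3*, and too few for firm statements on *Cfb*, *Serping1* and *Cd59a*.

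**Figure D2:**
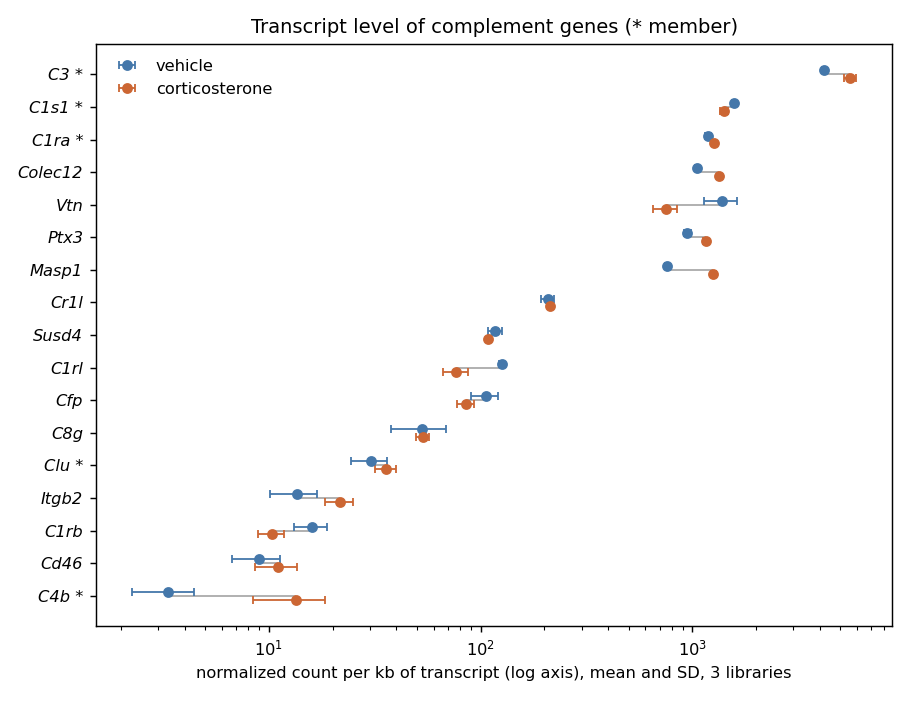
Normalized count per kilobase of transcript for complement genes that were tested, have an annotated coding transcript and had over 20 reads in some library, on a log axis, as mean and SD of 3 libraries per treatment, with asterisks on the genes from the list of 9. *C3* tops the order at 4188 with vehicle and 5571 with corticosterone, with *C1s1*, *Vtn* and *C1ra* next with vehicle, whereas *C4b* is lowest of those shown at 3.35 with vehicle and 13.4 with corticosterone.

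*C3* (ENSMUSG00000024164, chromosome 17, 57203970 to 57228136 of GRCm38, minus strand) encodes the protein on which all complement pathways converge. Its normalized count was 21781, 21900 and 20848 with vehicle and 27459, 30836 and 27539 with corticosterone. Every corticosterone library was above every vehicle library, and the second stood above the other corticosterone libraries. The log2 fold change was 0.41 (standard error, SE, 0.04, 95% interval 0.32 to 0.50, limma adjusted p = 2.1e-07), a 1.33-fold rise (interval 1.25 to 1.41). In the two-sided exact permutation test the p was 0.1, the smallest that 3 against 3 allow. Reads of *C3* are not shared with other genes, since 0% of the 31-base stretches of its transcripts also lie in transcripts of another gene. *C3* took 0.109% ± 0.00281 (SD, n = 3) of all normalized counts with vehicle and 0.141% ± 0.0105 (SD, n = 3) after treatment.

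The promoter of *C3* is shown because this gene had the highest level of the 8 measured and was called. The sequence gives the 250 bases before the RefSeq start site, chr17:57228137-57228386 of GRCm38.p6, on the minus strand, read toward the gene. Capitals mark a match to the C/EBP core TTNNGCAA, the motif of a family of factors active in acute-phase genes.

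C3: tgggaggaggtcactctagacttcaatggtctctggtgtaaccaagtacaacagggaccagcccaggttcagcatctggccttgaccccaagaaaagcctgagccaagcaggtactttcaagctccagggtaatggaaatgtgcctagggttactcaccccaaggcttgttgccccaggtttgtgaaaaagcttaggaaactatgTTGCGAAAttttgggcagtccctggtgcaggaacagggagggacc

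The match reads TTGCGAAA, lies 45 to 38 bases before the start on the opposite strand and is of a kind held by 9.57% of 32817 mouse promoter windows of the same length. Each window was searched on both strands for the glucocorticoid response element hexamer AGAACA, its inverted repeat with a spacer of 3 bases, the C/EBP core, the NF-kB core (GGG, any 3 bases, TTCC), the STAT palindrome TTCNNNGAA and the interferon response core (GAAA, any 2 bases, GAAA). The window of *C3* has no match to the others. The hexamer occurred in 16.1%, the NF-kB core in 4.65%, the STAT palindrome in 7.01%, the interferon core in 2.97% and the inverted repeat in 0.00914% of all windows. Promoter sequences were matched for 5 of the 9 genes.

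*C4b* (ENSMUSG00000073418, chromosome 17, 34728380 to 34743882 of GRCm38, minus strand) encodes mouse C4, which C1s and MASP proteases cleave on the way to the C3 convertase. The normalized count was 14.6, 14.7 and 24.8 with vehicle and 55.7, 103 and 57.6 with corticosterone. The groups were wide apart, although the second corticosterone library had well over the level of the other libraries of its group. The log2 fold change was 1.92 (SE 0.29, 95% interval 1.32 to 2.52, limma adjusted p = 2.4e-05), a 3.79-fold rise (interval 2.50 to 5.74). With the second corticosterone library left out, it was 1.64 (limma adjusted p = 0.0012). These values rest on 18 to 93 reads per library.

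*C4b* has a close copy, *C4a* (chromosome 17, 34809092 to 34823464), which lies 65210 bases away in the major histocompatibility complex. Of the 31-base stretches of *C4b*, 48.3% also occur in *C4a*, so the counting by the authors could have split or dropped reads of the pair. *C4a*, which the annotation lists without a coding transcript, had 37.3, 44.0 and 56.9 with vehicle and 70.7, 51.9 and 74.2 with corticosterone. These groups overlapped, and the log2 fold change of 0.51 (SE 0.22) had a limma adjusted p of 0.11. The sum of both genes does not depend on how reads shared by the pair were divided, although dropped reads would be missing from it. This sum was 51.9, 58.7 and 81.7 with vehicle and 126, 155 and 132 with corticosterone, a log2 fold change of 1.11 (SE 0.17, limma adjusted p = 4.3e-05). *C4b* made up 27.8% ± 2.70 (SD, n = 3) of this sum with vehicle and 51.4% ± 13.0 (SD, n = 3) with corticosterone, with no overlap (two-sided exact permutation p = 0.1, the smallest possible). In the vehicle libraries *C4a* thus had more counts than *C4b*, and in the corticosterone libraries the order differed between libraries. Both the share and this order depend on how shared reads were assigned.

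**Figure D3:**
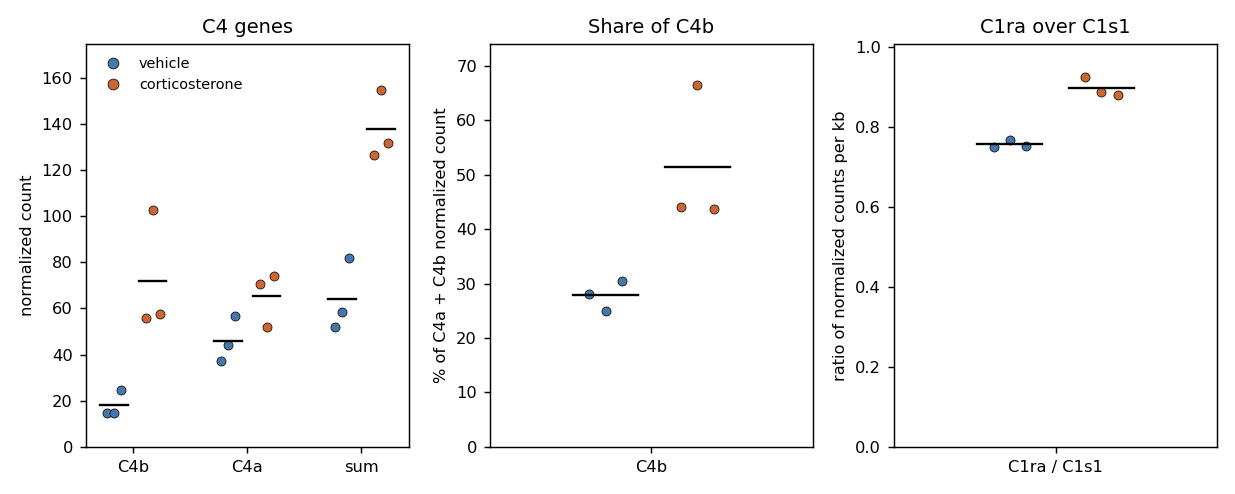
Left, normalized counts of *C4b*, *C4a* and their sum. Middle, *C4b* as a percentage of that sum. Right, ratio of *C1ra* to *C1s1*, each per kilobase. Points are libraries, lines are group means (n = 3), and all axes start at 0. The share of *C4b* lies between 25.0% and 30.4% with vehicle and between 43.7% and 66.4% with corticosterone, and the ratio lies between 0.750 and 0.768 with vehicle and between 0.880 and 0.924 with corticosterone.

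*Cfb* (ENSMUSG00000090231, chromosome 17, 34856374 to 34862518 of GRCm38, minus strand) encodes factor B, the protease of the alternative pathway convertase. It was barely detected, as the vehicle libraries held 1, 0 and 0 reads and the corticosterone libraries 2, 5 and 1. Its normalized counts were 0.811, 0 and 0 with vehicle and 2.14, 5.52 and 1.28 with corticosterone, so that all but 1 library lay under the floor. Over the summed reads the ratio was 10.7 with an exact 95% counting interval of 1.43 to 473, and limma gave an adjusted p of 0.15. Of the 2825 exon bases of *Cfb*, 2246 also belong on the same strand to the readthrough locus *Gm20547*, which joins it to *C2*. Whether reads in that stretch were counted for *Cfb* is not given in the sources used here, and its level is uncertain for this reason too. The neighbouring *C2*, the protease that pairs with C4, had 11.0 ± 1.84 with vehicle and 14.7 ± 2.78 with corticosterone (SD, n = 3 each, limma adjusted p = 0.56). Properdin (*Cfp*), which stabilizes the alternative convertase, had 173 ± 25.1 and 139.6 ± 13.3 (SD, n = 3 each, limma adjusted p = 0.11).

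The C1 proteases had the highest levels of the 8 measured genes after *C3*, and their values moved in opposite directions, although *C1ra* did not pass the test. *C1s1* (ENSMUSG00000038521, chromosome 6, 124530345 to 124542359 of GRCm38, minus strand) had normalized counts of 4557, 4715 and 4576 with vehicle and 4019, 4117 and 4348 with corticosterone. All corticosterone libraries were below all vehicle libraries. The fall was small, a log2 fold change of -0.15 (SE 0.04, 95% interval -0.24 to -0.06, limma adjusted p = 0.013) or 0.901-fold. It lost its call without the first (limma adjusted p = 0.10) or the second (0.054) corticosterone library and without a trend in the prior variance (0.17).

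*C1ra* (ENSMUSG00000055172, chromosome 6, 124512405 to 124523443, plus strand) had 3457, 3664 and 3483 with vehicle and 3759, 3697 and 3870 with corticosterone. The groups lay next to each other without overlap, the third corticosterone library being the highest. The log2 fold change of 0.10 (SE 0.04, 95% interval 0.01 to 0.18) had a limma adjusted p of 0.13, and the interval, which is not adjusted for the number of genes, places any rise at or below 1.14-fold. It was called only when the second vehicle library was left out (limma adjusted p = 0.046).

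Since C1r and C1s act as a pair, their ratio within a library was also computed, a comparison chosen after the values were seen. Per kilobase, *C1ra* over *C1s1* was 0.750, 0.768 and 0.752 with vehicle and 0.924, 0.887 and 0.880 with corticosterone. The groups were separated by more than the spread within either (two-sided exact permutation p = 0.1, the smallest possible). This ratio is free of the scaling between libraries. It depends on the assignment of reads to copies, as 56.9% of the 31-base stretches of *C1ra* also lie in *C1rb*, and 33.5% of those of *C1s1* in *C1s2*. The copies had few reads, with 38.8 ± 6.75 and 25.1 ± 3.48 for *C1rb* and 15.4 ± 2.72 and 14.0 ± 4.82 for *C1s2* (vehicle and corticosterone, SD, n = 3 each). Added to their copies, *C1ra* and *C1s1* had log2 fold changes of 0.09 and -0.15 (limma adjusted p = 0.16 and 0.013). In addition, 576 of the 3129 exon bases of *C1s1* lie opposite the locus *Gm16567*, and the strand setting of the counting is not given in the sources used here.

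These genes form a cluster on chromosome 6, in which *C1rl*, a C1r-like protease gene, ends 1762 bases before *C1ra*, and *C1s1* lies 6902 bases beyond it. *C1rl* (124493113 to 124510643, plus strand) fell more clearly than its neighbours, from 367, 390 and 378 with vehicle to 213, 212 and 267 with corticosterone. The log2 fold change was -0.72 (SE 0.10, limma adjusted p = 8.0e-06), with no overlap between the groups. Within 1 cluster, corticosterone thus went with a fall of *C1rl* to 0.608-fold, a fall of *C1s1* to 0.901-fold and a value of 1.07-fold for *C1ra* that did not pass the test. The difference between *C1rl* and the others was not itself tested.

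The promoters of *C1s1* and *C1rl* are shown as the genes of the cluster that were called. Each sequence gives the 250 bases before a RefSeq start site of GRCm38.p6, read toward the gene, for *C1s1* chr6:124542360-124542609 on the minus strand and for *C1rl* chr6:124492863-124493112 on the plus strand. Capitals mark the C/EBP core TTNNGCAA and the glucocorticoid response element hexamer AGAACA.

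C1s1: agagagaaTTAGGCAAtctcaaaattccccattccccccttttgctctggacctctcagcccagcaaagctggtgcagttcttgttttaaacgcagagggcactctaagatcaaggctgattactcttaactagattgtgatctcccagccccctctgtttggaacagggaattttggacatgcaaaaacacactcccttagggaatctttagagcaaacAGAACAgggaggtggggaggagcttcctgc
C1rl: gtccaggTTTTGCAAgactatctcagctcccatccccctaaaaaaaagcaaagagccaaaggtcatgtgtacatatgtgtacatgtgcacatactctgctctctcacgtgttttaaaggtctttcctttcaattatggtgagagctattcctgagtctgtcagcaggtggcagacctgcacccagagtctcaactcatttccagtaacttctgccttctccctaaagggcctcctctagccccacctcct

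The window shown for *C1s1* holds a C/EBP core 242 to 235 bases and the hexamer 30 to 25 bases before the start, and that of *C1rl* holds a C/EBP core 243 to 236 bases before it. The window of another RefSeq start of *C1s1*, chr6:124542322-124542571, has the hexamer 68 to 63 bases before that start and no C/EBP core. The window of *C1ra* (chr6:124512371-124512620, plus strand) has no match to any of the motifs searched. Most of it lies inside the gene as annotated by GENCODE, which starts at 124512405, so the sequence before that start was largely not searched. A match is a description of the letters and not a binding site.

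Of the fluid-phase regulators among the 9 genes, neither passed the test. *Serping1* (ENSMUSG00000023224, chromosome 2, 84765387 to 84775444 of GRCm38, minus strand), which encodes the inhibitor of C1r, C1s and the MASP proteases, had 1, 0 and 3 reads with vehicle and 7, 2 and 2 with corticosterone. Its normalized counts were 0.811, 0 and 3.10 against 7.49, 2.21 and 2.56, overlapping and mostly under the floor. The ratio over summed reads was 3.67 with an exact counting interval of 1.09 to 15.8, and limma gave an adjusted p of 0.25. In these libraries the transcript of C1 inhibitor was thus at the limit of detection, while those of *C1ra* and *C1s1* had 3025 to 6109 reads per library.

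*Clu* (ENSMUSG00000022037, chromosome 14, 65968483 to 65981547, plus strand) encodes clusterin, a chaperone that also blocks the terminal complex. Its normalized count was 52.7, 45.5 and 66.2 with vehicle and 61.0, 59.6 and 72.9 with corticosterone. The groups overlapped. The log2 fold change of 0.24 (SE 0.20, limma adjusted p = 0.47) had a 95% interval of -0.17 to 0.66, which leaves room for a 1.58-fold rise. *Vtn* (vitronectin, chromosome 11, 78499091 to 78502324), another fluid-phase inhibitor of the terminal complex and an adhesion protein, fell instead. It had 1954, 2798 and 2461 with vehicle and 1195, 1506 and 1219 with corticosterone, a log2 fold change of -0.87 (SE 0.09, limma adjusted p = 2.8e-07) without overlap. The small p depends on the prior variance, as the limma adjusted p was 0.036 with a robust prior and 0.04 without a variance trend. Factor I (*Cfi*) reached at most 2 reads in a library.

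Of the membrane regulators, *Cd59a* (ENSMUSG00000032679, chromosome 2, 104095801 to 104115354, plus strand), which blocks assembly of the terminal pore, had 2, 2 and 1 reads with vehicle and 0 in all corticosterone libraries. Its mean was under the filter, no test was made, and no fold is given because both groups lie under the floor of 3 reads per library. Its copy *Cd59b* had at most 3 reads. *Cr1l*, the rodent regulator of C3 convertases known as Crry, was the membrane regulator with the most counts per kilobase. It had 534, 614 and 581 with vehicle and 581, 584 and 605 with corticosterone, and the 95% interval of its log2 fold change ran from -0.11 to 0.18 (limma adjusted p = 0.80). *Cd46* and *Susd4*, which encode further membrane regulators of the convertases, had log2 fold changes of 0.31 and -0.10 with limma adjusted p-values of 0.39 and 0.48.

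A list of 58 complement genes, with the 9 above among them, was used to describe the rest of the system. Of the other 49, 29 had a row, 23 were tested, and 4 were higher and 2 lower, beside 11.0% higher and 10.7% lower of all genes tested. The absolute log2 fold changes of these 6 ran from 0.28 to 0.87. The median log2 fold change of the 23 was 0.15, against -0.005 for all genes tested. It is the value of *C5ar1*, which had 1 to 8 reads per library, so it does not describe a rise of the list. The lower genes were *C1rl* and *Vtn*. Among the higher genes, *Masp1* (chromosome 16, 23449417 to 23520815), which encodes proteases of the lectin pathway, had 4178, 4017 and 4034 with vehicle and 6935, 6681 and 6555 with corticosterone. This 1.65-fold rise (log2 fold change 0.72, SE 0.04, limma adjusted p = 9.1e-12) was large against the spread of either group. *Colec12*, a collectin of cell membranes, rose 1.27-fold (log2 fold change 0.35, SE 0.04, limma adjusted p = 2.6e-07). *Ptx3*, a pentraxin that binds C1q, rose 1.22-fold (log2 fold change 0.28, SE 0.05, limma adjusted p = 1.2e-04).

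*Itgb2*, the β subunit of complement receptors on leukocytes, had 35.7, 51.7 and 33.1 with vehicle and 66.4, 72.9 and 53.7 with corticosterone, a log2 fold change of 0.68 (SE 0.22, limma adjusted p = 0.032). Its call was lost without the first or the third vehicle library and without the first or second corticosterone library, with limma adjusted p-values of 0.098 to 0.14. It was also lost in DESeq2 without and with a replicate block (adjusted p = 0.087 and 0.20), under upper-quartile scaling (limma adjusted p = 0.061) and without a variance trend (limma adjusted p = 0.12). The anaphylatoxin receptor genes *C3ar1* and *C5ar1* reached at most 1 and 8 reads in a library. Of the terminal pathway, *C8g* had 60.9 ± 17.7 and 61.2 ± 4.51 (SD, n = 3 each, limma adjusted p = 0.93), and *C7* had at most 2 reads. The recognition genes *C1qa*, *C1qb* and *C1qc*, the adipsin gene *Cfd*, and *Hc*, which encodes C5, were not analysed here.

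**Figure D4:**
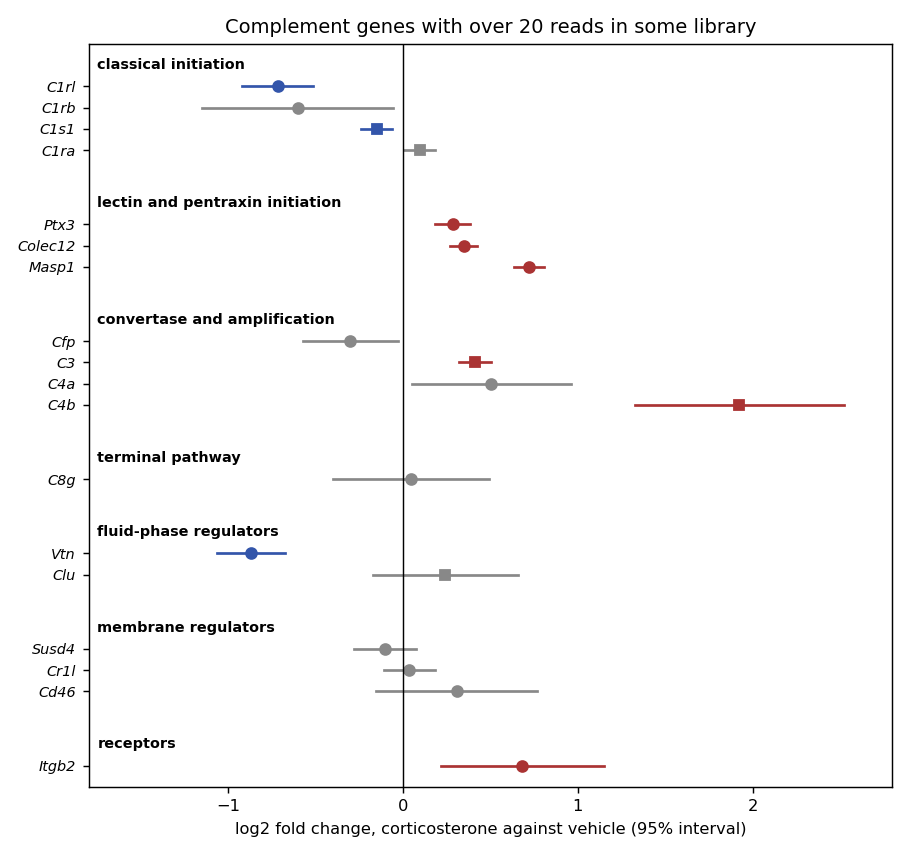
Log2 fold change of corticosterone against vehicle with its 95% limma interval for 18 complement genes with over 20 reads in some library, grouped by role. Red marks genes called higher, blue genes called lower and grey genes not called, and squares are from the 9 genes described. *C4b* stands at 1.92, *Masp1* at 0.72 and *C3* at 0.41, with *Vtn* at -0.87 and *C1rl* at -0.72 on the other side of 0.

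The nearest genes tested on either side were examined as well. Next to *C4b*, 8565 bases away, *Tnxb*, which encodes the matrix protein tenascin X, rose from 133, 167 and 139 with vehicle to 355, 429 and 400 with corticosterone (log2 fold change 1.43, SE 0.11, limma adjusted p = 1.4e-09). *Nelfe*, which lies 2 bases from *Cfb* on the side of *C4b*, had a log2 fold change of -0.04 (SE 0.07, limma adjusted p = 0.77). *Gpr108*, the nearest gene to *C3* on its upstream side, had -0.04 (SE 0.05, limma adjusted p = 0.64). Both neighbours of *Serping1* were called lower, *Gm19426* at -1.08 (limma adjusted p = 5.4e-04) and *Ube2l6* at -0.78 (limma adjusted p = 4.6e-07). *Fbxo3*, next to *Cd59a*, was called lower at -0.16 (limma adjusted p = 0.038). Apart from these and *Tnxb*, no neighbour outside the chromosome 6 cluster was called.

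The genes whose pattern over the 6 libraries was most like that of *C3* were *Lrpprc* (Pearson r = 0.998) and *Clk1* (0.995), among 10558 genes with a mean of at least 100. For *C4b* they were *Gm11611* (0.995) and *Sec16b* (0.994). For *C1ra* they were *Uqcrq* (0.998) and *Fam104a* (0.995), and for *Clu* they were *Ctdnep1* (0.984) and *Pus7* (0.983). For *C1s1* they were *Mllt1* (0.996) and *Ube2d1* (0.994). All values share the same libraries and 1 contrast, and they are given as a description. *Clk1*, a splicing-factor kinase gene, had a log2 fold change of 0.39 (SE 0.06), close to that of *C3*, whereas *Sec16b* changed by 0.17 (SE 0.05) and so had the shape of *C4b* at a much smaller size.

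Macrophages and adipocytes also make complement, and their markers were therefore examined. Of 8 macrophage markers 5 had a row and 0 of those were at 0 reads, while *Ptprc*, *Adgre1* and *Tyrobp* are not analysed here. Their summed normalized count per kilobase was 392 to 462 with vehicle and 303 to 340 with corticosterone. *Lyz2* and *Fcer1g*, which make up most of this sum, were called lower. *Cd68*, *Csf1r* and *Cd14* were not called, with log2 fold changes of -0.05, -0.47 and 0.07 (limma adjusted p = 0.92, 0.39 and 0.83). Of 5 adipocyte markers 2 had a row, and *Adipoq*, *Cidec* and *Lep* are not analysed here. *Fabp4*, a fatty acid carrier, rose from 21.1, 7.72 and 15.5 to 124, 108 and 131 (log2 fold change 3.05, SE 0.28, limma adjusted p = 2.8e-08), while *Plin1*, the lipid droplet coat gene, had 2 reads in 1 corticosterone library and 0 elsewhere. The summed level per kilobase of *Fabp4* and *Plin1* was 8.61 to 23.5 with vehicle and 121 to 147 with corticosterone. Nearly all of it was *Fabp4*, so it describes 1 gene and not the adipocyte list. Of 5 endothelial markers 3 had a row, with a summed level of at most 3.14 per kilobase. Of the 8 osteoblast markers 7 were lower and 1, *Spp1*, higher, and their summed level was 288900 to 298400 with vehicle and 266900 to 277300 with corticosterone. The part of these shifts in the results for *C3* and *C4b* was not tested, and in bulk RNA fewer cells of a type and less RNA per cell cannot be told apart.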

How the data were processed

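RNA of 6 cultures was made into libraries with the NEBNext Ultra RNA kit and sequenced commercially on an Illumina platform. The authors deposited 1 table, named FPKM, with 1 column of signal, never below 0, for each library. In every library 100% of the values are whole multiples of 1 step, within a tolerance of 0.05 reads, which fits reads scaled by a single factor in each library, with no division by gene length. Per the labels the build was mm10, which is GRCm38. The aligner, counting program, annotation and strand setting are not given in the sources used here. The authors tested expression with DESeq2.

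The reads behind each value were recovered from the step. Since 1 read is worth about 1 unit, limma 3.58.1 (variance trend) in R 4.3.3 was run on log2(value + 1) with a minimum mean of 1, which left out 4199 genes. The design was written for these 3 against 3 libraries with treatment as the sole term. Replicate numbers are shared by both groups, but the labels do not say that they pair cultures.

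The members and lists were chosen with earlier results of these data known. The genes named are the 9 members, the other genes of the complement list, for each member the 2 genes most alike by Pearson r and the nearest gene tested on either side, 4 glucocorticoid targets and the cell type markers, of which the text gives a part. The result for 1 gene of the list is not reported here, but the gene is in the counts over the list. Alternatives were other pseudocounts (0.1 and 5), other filters, scalings and prior variances, the replicate block, edgeR 4.0.16 and DESeq2 1.42.0 on the recovered reads, sums with paralogs, and leaving out each library. The limma, edgeR and DESeq2 fits were first run on simulated reads with known changes.

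Symbols and positions came from GENCODE M21, which matched 23983 of 24016 identifiers, and promoters from RefSeq (GRCm38.p6). Shared 31-base stretches were counted on either strand of GENCODE transcripts. Exact intervals on summed reads cover counting error only. Python 3.11.15 with pandas 2.3.3 wrote the tables, and matplotlib 3.10.9 drew the figures.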

Additional observations from a re-analysis of the deposited data

How the results depend on the processing

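Of 253 refits of the 7 complement genes and the 6 other complement genes called, 241 kept their side of the threshold, 11 lost a call, 1 gained one and 0 changed direction. *C3* and *C4b* were called in every alternative, with log2 fold changes of 0.27 (quantile normalization) to 0.44 and of 1.11 (summed with *C4a*) to 2.16. Their highest limma adjusted p-values, 0.027 for *C3* and 0.029 for *C4b*, came without a variance trend. The lost calls were 3 for *C1s1* and 8 for *Itgb2*, and the gain was *C1ra* without 1 vehicle library. *Cfb* and *Serping1*, whose log2 fold changes moved from 0.57 to 3.63 and from 0.51 to 2.44 with the pseudocount, were called in none, and they received no adjusted p from DESeq2 and were not kept by edgeR. The count of complement genes called ranged from 2 to 4 with a library left out.

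In the whole table the calls moved by over 1.5 times without a variance trend (1171 higher and 981 lower by the adjusted p, against 2181 and 2113), with upper-quartile scaling (1453 higher) and in DESeq2 with the replicate block (1254 lower, and 198 lower past a log2 fold change of 1 against 348). The share of higher calls was 50.8%, and 33.9% with upper-quartile scaling and 40.0% with scaling to the same total, while *C3*, *C4b* and *C1s1* kept their calls under both.

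Deviations from the group mean were only weakly related between libraries that carry 1 replicate number (r = 0.068, 0.088 and 0.017 across 10558 genes). Still, 5 of 6 libraries correlated best with their own number, a hint from the data and not the design. Whether the numbers pair cultures is thus not settled by these values. With the replicate block, limma called 2292 genes higher and 2236 lower and the same number of the complement genes, 3. Fewer than about 10 reads per library limit what can be said of *Cfb*, *Serping1* and *Cd59a*.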
